A study of Mus musculus with 34 samples.

Results

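Chromatin accessibility was examined at 36 genes that decide whether a cell lives or dies, here the regulators of apoptosis and necroptosis, in mouse hair follicle stem cells (HFSCs). The genes were a list of names, and all 36 were found among the 21757 protein-coding genes of the mm39 annotation. A peak was counted for a gene when its summit lay in the gene body, up to 50 kb upstream or up to 5 kb downstream. The 36 windows spanned 2962.2 kb on 18 chromosomes, 0.109% of the genome, and held 5446 of the 1935055 peaks called over 34 libraries, which was 0.282% of the called peaks on the main chromosomes. The windows of the neighbours Casp8 and Cflar overlap, as do those of Birc2 and Birc3, so a peak there was counted for both genes.

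ATAC-seq reports open chromatin by inserting sequencing adapters into DNA that nucleosomes leave exposed. Freshly sorted HFSCs came from wild-type skin at AnaVI (full growth, anagen, n = 2) and CatVII (late regression, catagen, n = 6), and from CatVII skin labelled Rxra WT (n = 4) or Rxra cKO (n = 3). In the knockout, tamoxifen activated Sox9-creER, which acts in Sox9-expressing cells, on Rxra fl/fl alleles that encode the nuclear receptor RXRα. Per the study's sorting notes, the Rxra WT animals for ATAC-seq also carried Sox9-creER but no floxed Rxra allele, and both genotypes held a YFP reporter and were sorted as YFP+, whereas wild-type HFSCs were sorted by CD34 and Itga6. Cultured HFSCs were lines from second-telogen skin grown on fibroblast feeders, with the deletion induced in the dish. They received medium (Rxra WT n = 2, Rxra cKO n = 2), a cocktail of lysophosphatidylcholine, arachidonic acid and both the 9-cis and all-trans forms of retinoic acid (AA+LPC+RA, Rxra WT n = 2, Rxra cKO n = 2), or corpses of dying HFSCs (Rxra WT n = 4, Rxra cKO n = 3). A further group received corpses treated with bromoenol lactone (BEL), which inhibits a phospholipase that releases lysophosphatidylcholine (Rxra WT n = 4). The number of lines was not given in the sources used here, and genotype and line cannot be told apart in culture. The labels give no ages. Tags in the stored peak names divide the libraries further, into P33 (AnaVI), P37 or P42 (CatVII) and Phago or NonPhago. In catagen Rxra cKO replicates 2 and 3 both carry the animal code m2, the first as NonPhago and the other as Phago, so the 3 Rxra cKO libraries may come from 2 animals. Rxra WT replicates 2 to 4 are stored under names that continue those of the wild-type CatVII libraries. In the wild-type CatVII, corpse and BEL groups the same numbers recur under Phago and NonPhago, and whether such libraries share an animal or dish was not given in the sources used here.

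The lists held 4144 to 129876 peaks, and read depth per library was not given in them. The 4 medium libraries held 4144 to 5740 peaks, and every other list held 8311 or more. Peaks were therefore ranked within each library from the lowest p-value (rank 1), and groups were compared over lists cut to the length of the shortest library in the comparison. Of 10 HFSC marker genes, 9 or 10 had a promoter peak in each Rxra WT and Rxra cKO CatVII library, 1 to 9 in the wild-type CatVII libraries, 3 to 9 in AnaVI, 5 to 9 in treated cultures and 0 to 2 in medium. Of 6 fibroblast markers 0 to 3 had one, of 6 melanocyte markers 0 to 3, of 6 immune markers 0 to 2 and of 4 endothelial markers 0 to 4. The stem cell marker Cd34 had no promoter peak in any cultured library. The melanocyte markers Tyr, Sox10 and Mlana had none in any library, and the share of other cells in the results below was not tested.

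Apoptosis runs through a mitochondrial and a receptor branch. In the first, BH3-only proteins sense damage, antagonise the guardians of the BCL-2 family and free the effectors to perforate the mitochondrial outer membrane, after which cytochrome c and APAF1 assemble the apoptosome that switches on caspases. In the second, death receptors recruit FADD and caspase-8. Inhibitor of apoptosis proteins (IAPs) and the RIP kinases set the threshold, and where caspase-8 is silent RIPK1 and RIPK3 can instead engage MLKL and burst the cell by necroptosis. Catagen is the stage at which the lower hair follicle is removed by apoptosis and phagocytosis. The paper reports that many HFSCs also die in late catagen, and that the survivors take up dying neighbours.

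Promoters of the death machinery were open in most libraries. A promoter peak was a summit within 1 kb of an annotated start of the gene. At least 25 of the 30 libraries outside medium had a promoter peak at 25 of the 36 genes (69.4%), against 40.7% of all gene names. Only Casp2 and Birc2 had one in all 30 of these libraries (5.56% of the genes, against 8.72% of all). Fasl was the sole gene with a promoter peak in 5 or fewer libraries (2.78%, against 36% of all).

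Among the guardians, which hold the effectors in check, Bcl2l1 (encoding BCL-XL) had a promoter peak in 31 of 34 libraries at a median rank of 3129 where present. Bcl2 had one in 27 libraries (median rank 14607), Bcl2l2 in 23 (23673) and Mcl1 in 29 (6461). The order of Bcl2l1 and Mcl1 was not the same in every library, and in the 3 Rxra cKO libraries with corpses Mcl1 stood at 4043, 4257 and 5981 and Bcl2l1 at 9212, 10652 and 8349. Among the effectors, Bok had a promoter peak in 29 libraries, and Bax and Bak1, which form the pore, in 23 each.

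The BH3-only genes ranged from 8 to 29 libraries. Bcl2l11 (BIM) had a promoter peak in 29 libraries, Bad and Pmaip1 (NOXA) in 28, Bmf in 26, Bbc3 (PUMA) in 25 and Bid in 24. Bik and Hrk, whose products share the same BH3 motif, had one in 12 and 8 libraries, and never at a rank better than 23728 and 53938. Hrk had no promoter peak in any wild-type AnaVI or CatVII library.

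The apoptosome and caspase genes had promoter peaks in 25 to 32 libraries. Casp2 and Apaf1 had a promoter peak in 32 libraries, Cycs (cytochrome c) and Diablo (SMAC, which blocks IAPs) in 31, Casp6 and Casp9 in 30, and the receptor-linked Casp8 in 25. The Cycs promoter had the lowest median rank of the 36 genes, 1603 over 31 libraries, followed by Birc2 at 1714.5. Of the IAP genes, Birc2 (cIAP1) had a promoter peak in 32 libraries, Xiap and Birc5 (survivin) in 25 and Birc3 (cIAP2) in 19.

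On the receptor branch, the receptor gene Fas and the adaptor gene Fadd each had a promoter peak in 28 libraries, Cflar (the caspase-8 inhibitor cFLIP) in 29 and the TRAIL receptor gene Tnfrsf10b in 21. No library had a promoter peak at Fasl, the ligand of FAS that is best known from lymphocytes, and its window held at most 2 peaks. Trp53 had one in 28 libraries. Of the necroptosis genes, Ripk1 had a promoter peak in 29 libraries, whereas Mlkl, the executioner, had one in 19 and Ripk3 in 10. Ripk2, a kinase of the NOD pathway that signals to NF-kB rather than to MLKL, had one in 33 libraries, the most of all 36 genes. The single library without it was AnaVI replicate 1.

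**Figure D1:**
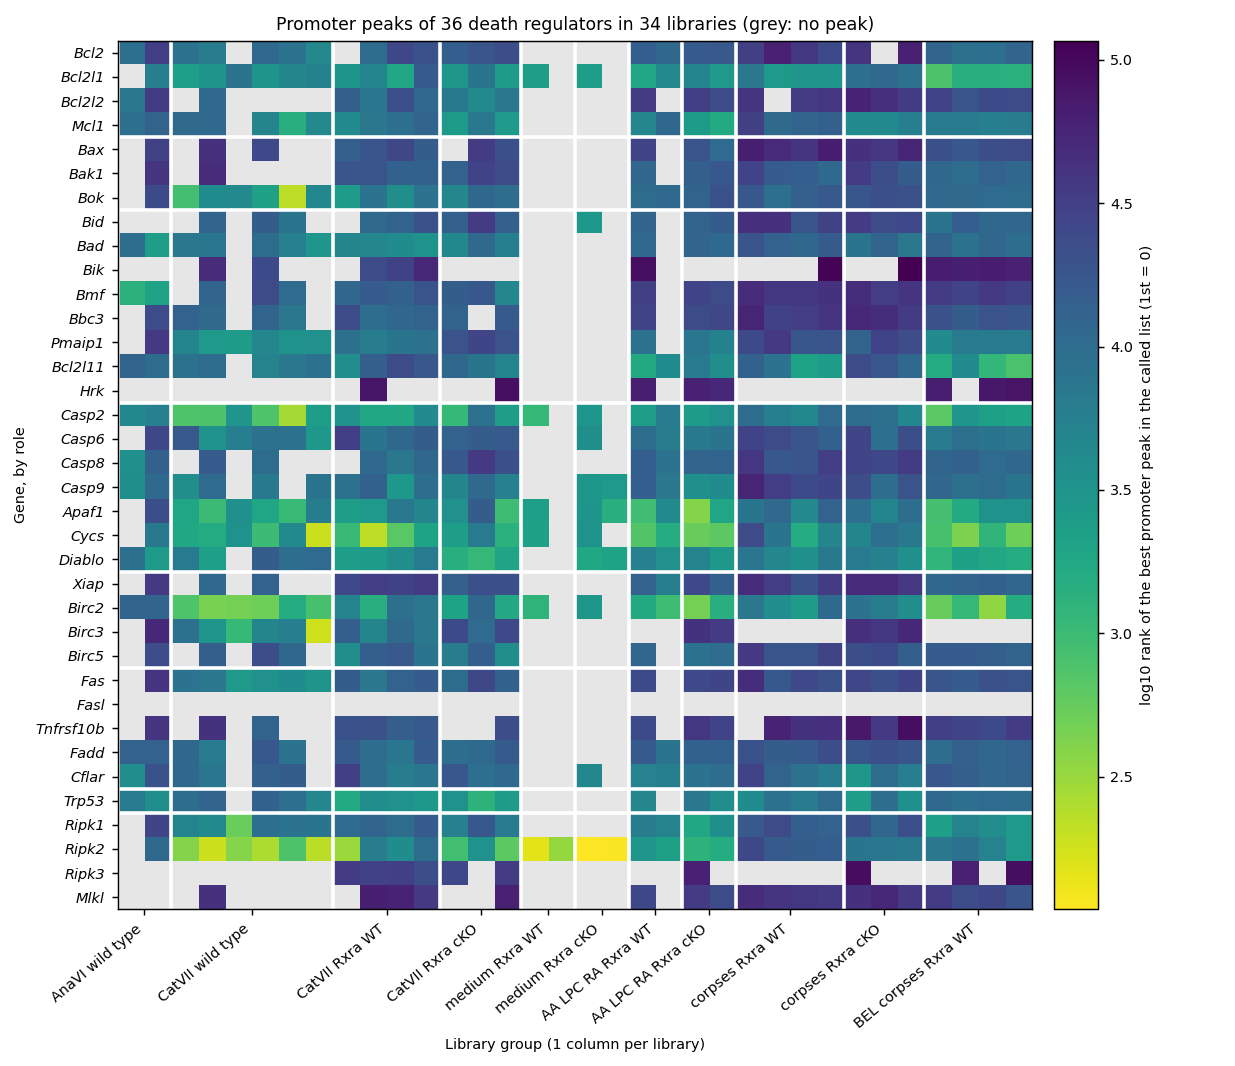
Rank of the best promoter peak of each of the 36 genes (vertical axis, by role) in each of the 34 libraries (horizontal axis, 1 column per library), with grey where no promoter peak was called. The columns of the 4 medium libraries hold 1 to 11 genes each, with Ripk2 in all 4, and the Fasl row is empty.

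The count of genes with a promoter peak moved with the length of the list. It was 14 and 30 in the 2 AnaVI libraries, and 12 at the lowest, 23 in the middle and 33 at the highest in the 6 wild-type CatVII libraries. The Rxra WT libraries of CatVII had 29, 35, 34 and 34, and the Rxra cKO libraries 30, 29 and 34. In medium it was 6 and 1 for Rxra WT and 11 and 4 for Rxra cKO. A gene without a promoter peak in a short list was therefore not shown to be closed.

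In culture the counts were again near the top. With corpses 30, 30, 31 and 32 genes had a promoter peak in Rxra WT and 33, 31 and 33 in Rxra cKO, and BEL-treated corpses gave 33, 33, 33 and 34. AA+LPC+RA gave 33 and 18 in Rxra WT, where the second list was the shorter, and 34 and 33 in Rxra cKO. A promoter peak in every Rxra WT library with corpses was found at 29 of the genes (80.6%, against 49.5% of all genes), and in every library with BEL-treated corpses at 32 (88.9%, against 57.4%).

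The first comparison asked which regions differed between catagen and anagen HFSCs. Wild-type CatVII lists placed the Ripk2 and Birc2 promoters near the top. Anagen lists placed the Bmf promoter and an intron of Bcl2l1 higher than those lists did. Over the best 8223 peaks of each library, the windows held 49 regions (merged overlapping peaks) at 28 of the genes, of which 38 lay at a promoter of any gene (77.6%, against 52.4% of all regions). A peak in all 6 catagen libraries and in neither anagen library was found at 6 regions (4.92% of all 12908 regions had this pattern). The reverse was found at 4 (9.55% of all).

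A rank score was tested with limma across all regions. The score is log2 of the list length plus 1, minus log2 of the rank, and is 0 where a library had no peak, so that 1 unit is a doubling of rank. Of the 49 regions, 2 scored higher in catagen (1.6% of all regions did) and 3 lower (9.9% of all). The 38 regions at promoters had 2 higher and 1 lower, and the 11 away from them 0 and 2. The median difference of the 49 regions was 0.03 and that of all regions 0.20.

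The Ripk2 promoter ranked 401, 186, 384, 255, 755 and 222 in the catagen libraries and was not among the best 8223 peaks of either anagen library. In the uncut lists it stood at rank 10682 in AnaVI replicate 2 and was absent from replicate 1. In the other CatVII lists, uncut, it stood at 315, 6091, 3877 and 9934 in Rxra WT and at 889, 3342 and 640 in Rxra cKO. The wild-type groups did not overlap, and the score was 4.65 ± 0.70 higher in wild-type catagen (difference ± SE, n = 6 and 2, adjusted p = 0.0063). Ranked by fold enrichment in place of p-value, the difference was 2.93 with an adjusted p of 0.108. In such bulk libraries, a region open in fewer cells and one less open in each cell cannot be told apart.

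The Birc2 promoter, from which a ubiquitin ligase of the TNF receptor complex is read, ranked 746, 441, 473, 504, 1547 and 824 in catagen. In anagen it was present in both uncut lists, but only at ranks 12383 and 12055. It was 3.59 ± 0.67 higher in catagen (adjusted p = 0.0087). All 6 wild-type catagen ranks were better than both anagen ranks. In the other CatVII lists, uncut, it stood at 5194, 1443, 8958 and 7327 in Rxra WT and at 2046, 11192 and 1725 in Rxra cKO.

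A further 4 catagen-specific promoters did not pass the test. The promoter that Apaf1 shares with the opposite gene Ikbip ranked from 1017 to 6226 in catagen (difference 1.98 ± 0.75, adjusted p = 0.14). Bok ranked from 216 to 4471 (2.21 ± 1.13, adjusted p = 0.285), the p53 target Pmaip1 from 2541 to 5064 (1.24 ± 0.46, adjusted p = 0.131) and Fas from 2789 to 8201 (0.90 ± 0.53, adjusted p = 0.37). None of these 4 was among the best 8223 peaks of an anagen library, though all 4 were present in the uncut list of AnaVI replicate 2. The Bok region lay 667 bp from an annotated start. Among uncut culture lists only 1, of Rxra WT with corpses, held it, so the Bok promoter peaks counted in culture lay mostly elsewhere.

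Anagen placed other regions higher. The promoter of Bmf, whose protein is held at the cytoskeleton until a cell detaches, ranked 1301 and 2068 in anagen and was outside the best 8223 in all 6 catagen libraries (catagen minus anagen -2.33 ± 0.36, adjusted p = 0.0063). An intron of Bcl2l1, 10420 bp from a start (chr2:152661880-152662623, mm39), ranked 2696 and 3147 (-1.50 ± 0.24, adjusted p = 0.0063). In the uncut lists 3 of the 6 wild-type CatVII libraries held the Bmf promoter (12285, 23205 and 10303). The Bcl2l1 intron was also held by 3 (16978, 20282 and 23314), and both regions by every Rxra WT and Rxra cKO library of CatVII. A region in the Ripk3 window, inside the neighbouring gene Adcy4, ranked 3358 and 1304 (-1.97 ± 0.40, adjusted p = 0.0118). In the uncut lists it stood at 16502, 17073 and 15129 in 3 of the 6 wild-type CatVII libraries. Rxra WT CatVII libraries held it at 9011, 11647, 1449 and 5278, which overlaps anagen, and Rxra cKO ones at 13430, 24184 and 7441. A region in the Bak1 window near Ggnbp1 stood at 7994 and 7176, just inside the limit (-0.12 ± 0.06, adjusted p = 0.293). Uncut, it stood at 4686, 9493, 9301 and 10314 in Rxra WT CatVII and at 4788, 11987 and 5756 in Rxra cKO, which also overlaps anagen.

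All 5 calls held when any of the 6 catagen libraries was left out, with adjusted p at most 0.035. The 3 regions lower in catagen score 0 in every catagen library. Leaving out 1 of these libraries at the same list length therefore does not test the stability of those 3 calls. Each of these 5 regions entered the test through the peaks of 1 stage, with the other stage at 0. The adjusted p therefore rests on the spread within 1 stage. Only 2 of the libraries are anagen, and a fit without 1 of them takes the spread from catagen alone, where the anagen-specific regions are all at 0, so such fits say nothing of the stability of these calls. The number of specific regions was 11 without AnaVI replicate 1 and 19 without AnaVI replicate 2, and the number of calls 9 and 14. Without CatVII replicate 3, the shortest list, the list length rose to 13309, and the Ripk2, Birc2, Bmf and Bak1 regions were no longer specific to a stage although the first 3 kept their call.

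**Figure D2:**
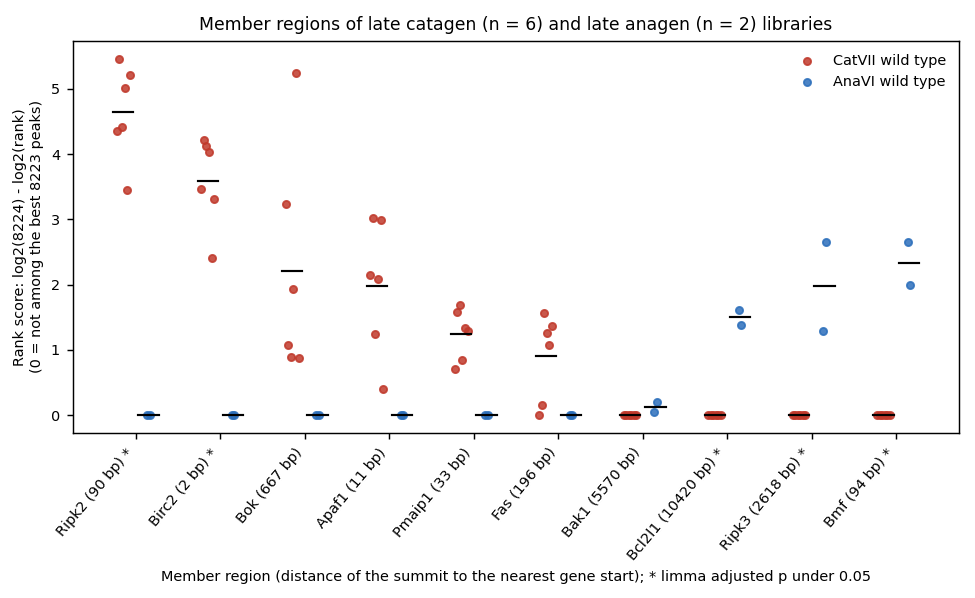
Rank score (vertical axis, 0 where a region was not among the best 8223 peaks) of the 10 stage-specific regions (horizontal axis) in the 6 CatVII and 2 AnaVI wild-type libraries, with asterisks where the limma adjusted p was under 0.05. The Ripk2 and Birc2 promoters stand highest in catagen, and the Bmf promoter stands highest in anagen.

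The sequences around the stage-specific promoters are shown for the 4 of these promoters that ranked best, and the other 3 are left out. They are stretches of the reference genome (mm39, plus strand) within the 200 bases at the summit, outside annotated exons, with motif matches in capitals.
Ripk2 promoter, chr4:16163797-16163846: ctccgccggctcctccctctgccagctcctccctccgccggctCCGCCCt
Birc2 promoter, chr9:7837121-7837162: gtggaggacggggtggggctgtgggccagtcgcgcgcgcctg
Apaf1 promoter, chr10:90918687-90918727: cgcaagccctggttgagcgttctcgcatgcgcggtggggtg
Bmf promoter, chr2:118380178-118380370: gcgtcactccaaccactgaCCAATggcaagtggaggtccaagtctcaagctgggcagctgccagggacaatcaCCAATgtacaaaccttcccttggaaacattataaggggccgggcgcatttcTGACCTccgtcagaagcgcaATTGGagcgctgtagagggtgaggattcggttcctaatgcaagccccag
The capitals mark GGGCGG (the KLF/SP box, here on the minus strand), CCAAT (the NFY box, on either strand) and AGGTCA (a nuclear receptor half-site, here on the minus strand). The GC content of the 200 bases was 73.5% at Ripk2, 70.0% at Birc2, 73.5% at Apaf1 and 54.5% at Bmf, so the promoter placed higher in anagen was the less GC-rich.

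Motifs were counted on both strands in 200 bases at each region's summit. GGGCGG stood in 46.9% of the 49 death-regulator regions and 38.2% of all regions, but at promoters alone in 55.3% against 63.1%. CCAAT stood in 30.6% and 32.8%, AGGTCA in 6.12% and 8.06%, the AP-1 site TGANTCA in 8.16% and 15.2%, the TEAD site GGAATG in 2.04% and 11.7%, and the decamer NF-kB site in 6.12% and 5.69%. A match describes letters and says nothing of what binds there.

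The Rxra comparison in catagen asked what loss of the receptor changed in the sorted cells, and few regions of the death genes stood apart. Over the best 41317 peaks the windows held 136 regions at 34 genes. Of these, 1 was met in each of the 3 Rxra cKO libraries but in none of Rxra WT (0.665% of all 40906 regions did), and 1 in all 4 Rxra WT and in no Rxra cKO library (1.85% of all). No region of the 136 passed limma in either direction, nor did the genome give more than 2 calls higher (0.00489%) and 0 lower (0.0%). At an unadjusted p under 0.05 there were 24 of the 136 regions and 5962 of all.

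The region specific to Rxra cKO lay 5113 bp upstream of Bmf, at ranks 27765, 5227 and 10413 (1.85 ± 0.52 higher, adjusted p = 0.317). In this region 90.8% of all 25-base words recur elsewhere in the genome, and 64.6% occur 10 or more times, so reads there could have come from other copies. Its sequence is for that reason not shown.

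The region specific to Rxra WT lay 35301 bp upstream of Ripk2, at ranks 18473, 23831, 17405 and 8926 (-1.35 ± 0.48, adjusted p = 0.321). No 25-base word of it recurs. In the uncut lists it was present in 4 of 4 Rxra WT and 2 of 3 Rxra cKO libraries, in 1 of 6 wild-type CatVII libraries and in no cultured or AnaVI library. Its 200 bases at the summit are shown because no other distal region of these genes separated the genotypes in vivo without repeats.
Ripk2 distal region, chr4:16198858-16199057: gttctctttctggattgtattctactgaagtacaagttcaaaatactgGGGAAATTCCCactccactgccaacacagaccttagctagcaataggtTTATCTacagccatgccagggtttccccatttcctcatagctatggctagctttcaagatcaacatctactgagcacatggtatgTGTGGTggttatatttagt
The capitals mark an NF-kB site that matches on both strands, a GATA word on the minus strand and the RUNX word TGTGGT. An NF-kB site stood in 8.82% of the 136 regions and in 5.41% of all regions, and TGTGGT in 7.35% and 13.1%.

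The stored tags are not balanced between these genotypes, since all 3 Rxra cKO libraries carry P42 but only replicate 1 of the Rxra WT libraries does. Among the P42 libraries alone (3 against 1, the lone library taken to vary like the others) the distal Ripk2 region differed by -1.16 (Rxra cKO minus Rxra WT). All 3 Rxra cKO scores are 0 there, so the fit holds no spread at this region and its p-value was not read. The part of the tag, and of the 1 library, was not tested. If replicates 2 and 3 of Rxra cKO are from 1 animal, the p-values here are too small. Leaving out Rxra WT replicate 1 or Rxra cKO replicate 1 or 3 changed the number of specific regions from 2 to 7, 12 and 5, and no limma fit with a library left out gave a call, with 11 to 35 regions at an unadjusted p under 0.05.

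The corpse comparison in Rxra WT culture could use only the best 4812 peaks, the length of the shorter medium list. It held 23 regions at 17 genes, with a median difference of 0.13 against 0.46 for all regions. A peak in all 4 libraries with corpses and in neither medium library was found at 2 regions (20.7% of all 6295 regions had this), and the reverse at 2 (11.4% of all). Of the 23, 1 scored higher with corpses (3.73% of all) and 1 lower (6.56% of all). The 4 Rxra WT libraries with corpses also serve in the next comparisons, by genotype and by BEL, so the results of the 3 are not independent.

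Ripk2 was the gene that medium placed highest. Its promoter ranked 144 and 331 in medium, and with corpses it was outside the best 4812 peaks of all 4 libraries, standing at 25640, 16273, 14769 and 14577 in the uncut lists (corpses minus medium -4.46 ± 0.54, adjusted p = 0.00553). The call held in the 4 fits without 1 of the corpse libraries, with adjusted p up to 0.0289. Every corpse score is 0 here, so these fits leave the difference at -4.46 and do not test its stability. A fit without 1 medium library takes the spread from the corpse libraries alone, which are all at 0 here, and was not read. The region entered the test through the medium libraries alone. The same promoter ranked 109 and 114 in Rxra cKO medium and 7708, 7542 and 7001 in Rxra cKO cells with corpses, which were not compared by a test. Of its 25-base words 18.7% recur elsewhere in the genome, and 0.0% occur 10 or more times. With intervals of 100 bp on either side of each summit in place of whole peaks, no region of the death genes scored lower with corpses.

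A second Ripk2 region, in an intron 37734 bp from the start, ranked 77 and 1613 in medium (-3.77 ± 1.10, adjusted p = 0.0739), and 97.1% of its 25-base words recur elsewhere. In the Bcl2l1 window, the promoter of the mitotic gene Tpx2 ranked 642, 866, 715 and 275 with corpses and was absent from both medium lists (3.07 ± 0.65, adjusted p = 0.0358). That call held in 1 of 6 fits with a library left out, the 1 without corpse replicate 1, with adjusted p from 0.0411 to 0.0686. An intron of Cflar, 16701 bp from the start, ranked 2942, 1826, 1468 and 1931 with corpses (1.28 ± 0.47, adjusted p = 0.142).

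Without medium replicate 3 or replicate 4 the number of specific regions was 11 or 8, and that of calls 5 or 9. Without corpse replicate 2, 3 or 4 only the call at the Ripk2 promoter remained. The uncut lists gave 135 regions higher and 2 lower, where the lists of the libraries with corpses were far longer than those of medium.

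Under corpses, Rxra cKO and Rxra WT cells were compared over the best 72047 peaks, with 208 regions at 35 of the genes. Regions were specific to a genotype or called no more often at the death genes than among all regions. Rxra cKO lists held the Birc3 promoter, the Gstk1 promoter beside Casp2 and a repeated sequence upstream of Bmf, which Rxra WT lists lacked. Rxra WT lists ranked introns of Bcl2l1 and Bcl2l11 higher. Of the 208 regions, 5 were specific to Rxra cKO (3.63% of all 74619 regions were) and 3 to Rxra WT (1.79%). In the test 7 scored higher in Rxra cKO (4.69% of all) and 2 lower (1.6% of all). Among the 208 regions the shares were 2.4% and 1.44% specific, 3.37% higher and 0.962% lower, each below that of all regions. The regions at Birc3, beside Casp2 and upstream of Bmf entered the test through Rxra cKO alone, with every Rxra WT score at 0.

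The Birc3 promoter, which makes an IAP that NF-kB signalling is known to induce, ranked 45927, 37369 and 52459 in the 3 Rxra cKO libraries and had no peak in any of the 4 Rxra WT libraries (0.68 ± 0.18 higher, adjusted p = 0.0317). Over all 34 uncut lists it was present in 6 of 6 wild-type, 4 of 4 Rxra WT and 3 of 3 Rxra cKO libraries of CatVII and in 1 of 2 AnaVI libraries. In culture it was present in both Rxra cKO libraries given AA+LPC+RA, at 41910 and 34537, and in no Rxra WT library of any treatment. Neither genotype had it in medium. The endothelial marker Cdh5 had a promoter peak in the same cultures, 3 of 3 Rxra cKO libraries with corpses, 2 of 2 with AA+LPC+RA and no Rxra WT culture. Of the 4 endothelial markers (Pecam1, Cdh5, Kdr and Tek), 3 had a promoter peak in each Rxra cKO library with corpses and 1 to 2 in the Rxra WT ones, and Kdr had none in either. Their part in the results by genotype was not tested. The call was lost without corpse Rxra WT replicate 2, 3 or 4 or Rxra cKO replicate 1, with adjusted p up to 0.0881.

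In the Casp2 window, the promoter of the mitochondrial glutathione transferase gene Gstk1 ranked 22079, 34469 and 29324 in Rxra cKO and was absent from Rxra WT (1.36 ± 0.25, adjusted p = 0.00622). This call held in 7 of 7 fits with a library left out. Every Rxra WT score is 0 here, so a fit without an Rxra WT library does not test its stability. The region was present in 4 of 4 Rxra WT and 3 of 3 Rxra cKO libraries of CatVII, whereas in culture it was present in 2 of 2 Rxra cKO libraries with AA+LPC+RA and in no Rxra WT library.

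The region 5195 bp upstream of Bmf ranked 24888, 25534 and 45418 in Rxra cKO and was absent from Rxra WT (1.23 ± 0.26, adjusted p = 0.0122). The call was lost without Rxra cKO replicate 1 (adjusted p = 0.0556). It overlaps the region found specific to Rxra cKO in catagen, whose wider interval was also met in 1 of 4 Rxra WT libraries of CatVII and 1 of 4 with BEL-treated corpses. In all uncut lists, it was present in 3 of 3 Rxra cKO libraries of CatVII, 2 of 2 with AA+LPC+RA and 3 of 3 with corpses, and in no Rxra WT or wild-type library and neither Rxra cKO library in medium. All of its 25-base words (100%) recur elsewhere and 86.9% occur 10 or more times, so the copy that gave the reads cannot be told apart.

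**Figure D3:**
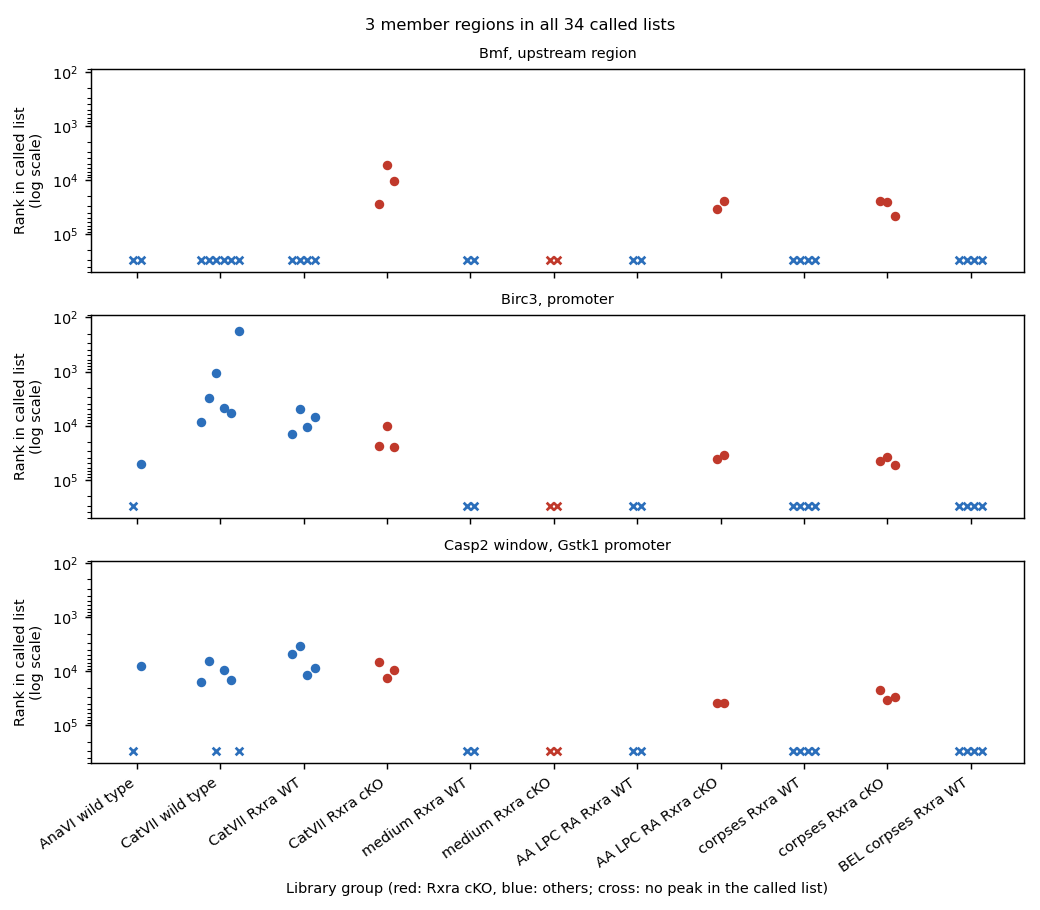
Rank in the uncut peak list (vertical axis, log scale, best at the top) of 3 death-gene regions in all 34 libraries by group (horizontal axis), with Rxra cKO groups in red, other groups in blue and a cross where no peak was called. The panels show the Birc3 promoter in every CatVII library, and in culture only in Rxra cKO libraries outside medium.

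Other regions were present in both genotypes at different ranks. In the Bcl2l2 window, the promoter of the poly(A)-binding protein gene Pabpn1 ranked 1864, 750 and 1690 in Rxra cKO and 15027, 7491, 5493 and 5289 in Rxra WT (2.51 ± 0.60, adjusted p = 0.0218). A region in the Fas window inside Acta2 ranked 24788, 28302 and 12969 against none, 53610, 59620 and 47827 (1.46 ± 0.35, adjusted p = 0.0232). Neither pair of groups overlapped, and the share of all regions without overlap was not counted. Both calls were lost without Rxra WT replicate 2, Rxra cKO replicate 1 or Rxra cKO replicate 3, the first also without Rxra cKO replicate 2 and the second also without Rxra WT replicate 3, with adjusted p up to 0.0872 and 0.081.

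A region 29200 bp from Pmaip1 (1.19 ± 0.32, adjusted p = 0.0366) and an intron of Bcl2 32388 bp from its start (1.28 ± 0.35, adjusted p = 0.0421) also scored higher in Rxra cKO. Lower in Rxra cKO were an intron of Bcl2l1 8531 bp from a start, at 62214, none and none against 24185, 37682, 34348 and 40581 (-1.03 ± 0.28, adjusted p = 0.037), and an intron of Bcl2l11 6286 bp from a start, at 56209, none and 54528 against 26267, 30583, 24787 and 27126 (-1.16 ± 0.31, adjusted p = 0.0352). The Bcl2 call held in none of the 7 fits with a library left out, and the other 3 only in the fit without Rxra WT replicate 1. Of the words in the Bcl2l11 intron 41.2% recur elsewhere.

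The remaining 5 specific regions did not pass the test. In Rxra cKO they were an intron of Casp6 (adjusted p = 0.0868) and a region between Cflar and Casp8 (adjusted p = 0.125), of whose words 97.0% recur. In Rxra WT they were a second Bcl2l1 intron (adjusted p = 0.0529), the Afmid promoter in the Birc5 window (adjusted p = 0.0687) and an Apaf1 intron that no other group of the 34 libraries held (adjusted p = 0.39). The number of calls ranged from 1 without Rxra cKO replicate 1 to 15 without Rxra WT replicate 1, and was 3 without Rxra WT replicate 2 or 3 or Rxra cKO replicate 3, 4 without Rxra WT replicate 4 and 5 without Rxra cKO replicate 2. The specific regions numbered 13 without Rxra cKO replicate 1 or 3. Ranked by fold enrichment, the calls were those at Birc3, Gstk1 and upstream of Bmf (3), and with regions kept whatever the number of libraries limma called none, with 41 regions at an unadjusted p under 0.05.

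BEL-treated corpses, set against untreated corpses in Rxra WT cells, gave the most calls. Over the best 63739 peaks the windows held 184 regions at 35 genes, and 30 genes had a call or a specific region. Many promoters of the death genes scored higher with BEL, at a share near that of promoters across the genome. Of the 184 regions 43 scored higher with BEL-treated corpses (14.2% of all 62168 regions did) and 7 lower (7.17% of all). There were 3 regions specific to BEL-treated corpses (2.26% of all) and 1 specific to untreated corpses (0.729% of all).

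The calls were divided by position. At promoters 33 of 71 regions scored higher (46.5%, against 42.8% of all 12688 regions at promoters) and 0 lower (against 1.91%). Away from promoters 10 of 113 scored higher (8.85%, against 6.84%) and 7 lower (6.19%, against 8.52%). Promoters made up 38.6% of these regions and 20.4% of all regions. The median difference at promoters was 0.79 for the death genes and 0.70 for all.

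Genes that act at or after the mitochondrion included the largest difference. The Cycs promoter ranked 841, 433, 1229 and 505 with BEL and 22756, 7936, 1538 and 4899 without (3.14 ± 0.68, adjusted p = 0.00567). The Diablo promoter ranked 1198, 2139, 1780 and 1571 against 7541, 4615, 3519 and 6991 (1.73 ± 0.41, adjusted p = 0.00928), and the shared Apaf1 and Ikbip promoter 852, 1629, 3228 and 3322 against 7816, 10635, 4386 and 13124 (2.08 ± 0.50, adjusted p = 0.01). In none of these 3 did the groups overlap, though the share of all promoters without overlap was not counted. Casp2, an initiator linked to genome damage, ranked 642, 2949, 2194 and 2030 against 10031, 5714, 4515 and 10073 (2.07 ± 0.50, adjusted p = 0.0103).

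Of the 8 BH3-only genes, 3 scored higher at their own promoter (42.8% of all regions at promoters scored higher). The Pmaip1 promoter ranked 4055, 6759, 6547 and 6813 with BEL and 25056, 37101, 17809 and 18589 without (1.99 ± 0.33, adjusted p = 0.00141). The Bbc3 window scored higher at 3 regions, most at the Ccdc9 promoter (2.37 ± 0.34, adjusted p = 0.000769), while the Bbc3 promoter itself differed by 1.07 ± 0.26 (adjusted p = 0.0101). In the Bad window the Trmt112 promoter differed by 1.30 ± 0.35 (adjusted p = 0.0186). The Bid promoter differed by 1.57 ± 0.32 (adjusted p = 0.00446). No region at the Bad, Bmf or Bcl2l11 promoters was called, the nearest being one at Bcl2l11 (1.76, adjusted p = 0.0773), and Bik and Hrk had no tested region at their own. Of 2 Bmf introns called, 1 was higher (1.61, adjusted p = 0.00475) and 1 lower (-0.54, adjusted p = 0.0253).

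The promoters of all 4 guardians were called higher (42.8% of all regions at promoters were), least at Bcl2l2 (0.86, adjusted p = 0.0232). The Bcl2l2 call was lost without BEL replicate 2, 3 or 4 or untreated replicate 2. The Bcl2 promoter, which is not among the genes named by rule, ranked 11830, 8829, 9168 and 11939 against 30869, 61341, 37230 and 24533 (1.81 ± 0.31, adjusted p = 0.00155). The Mcl1 promoter ranked 6708, 6461, 5683 and 6141 against 31289, 10538, 11991 and 13825 (1.29 ± 0.36, adjusted p = 0.0208). The Bcl2l1 promoter ranked 770, 1431, 1409 and 1367 against 7094, 2756, 3065 and 3022 (1.60 ± 0.45, adjusted p = 0.0215), but ranked by fold enrichment its difference had the other sign (-0.68, adjusted p = 0.319).

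Among IAP genes and RIP kinases, the Birc2 promoter ranked 554, 1121, 350 and 1562 with BEL and 7368, 3796, 2546 and 10718 without (2.78 ± 0.58, adjusted p = 0.00453). The Ripk1 promoter ranked 2272, 5191, 3832 and 2786 against 16560, 23026, 14626 and 12991 (2.29 ± 0.36, adjusted p = 0.00112), and that of Ripk2 7355, 8382, 5241 and 2764 against 25640, 16273, 14769 and 14577 (1.66 ± 0.38, adjusted p = 0.00791). The groups did not overlap at any of these, and how many of all promoters show this was not counted. The Stk25 promoter in the window of Bok differed by 1.65 ± 0.47 (adjusted p = 0.0228).

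All 7 regions that scored lower with BEL lay away from promoters. The largest such difference was in the Apaf1 window, 10049 bp from the Ikbip start, at 10065, 7409, 8940 and 6730 with BEL and 1424, 2100, 1016 and 4932 without (-2.06 ± 0.47, adjusted p = 0.0076). A region 41561 bp from Birc3 differed by -1.56 ± 0.45 (adjusted p = 0.0247), Bcl2l1 introns 25607 and 20261 bp from a start by -1.49 ± 0.46 and -1.01 ± 0.27 (adjusted p = 0.0313 and 0.0172), and a region 36318 bp from Ripk2 by -0.88 ± 0.29 (adjusted p = 0.0438). The other 2 lay in a Bmf intron and a Casp6 exon. The Apaf1 window thus held a promoter placed higher and a region inside Ikbip placed lower.

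Ranked by fold enrichment, 9 regions scored higher and 1 lower, with 3093 and 980 in the genome. The promoters of Ripk1 (1.90, adjusted p = 0.0261) and Pmaip1 (1.52, adjusted p = 0.0298) kept their calls there, and those of Birc2 (adjusted p = 0.331) and Ripk2 (adjusted p = 0.326) did not. Within the Phago or the NonPhago libraries alone (2 against 2) limma called no region of the death genes, with 62 and 59 at an unadjusted p under 0.05. Without untreated corpse replicate 3 the specific regions numbered 8. The Mcl1 promoter lost its call without any of the 4 BEL libraries, and that of Bcl2l1 without BEL replicate 1. The Trmt112 promoter lost it without BEL replicate 1 or 4, and the Stk25 promoter without BEL replicate 1, 2 or 4 or untreated replicate 4. Those of Cycs, Birc2, Casp2, Diablo, Ripk1, Ripk2, Pmaip1 and Bcl2 kept theirs in all 8 such fits. Of the lower regions, that of Apaf1 was lower in all 8 fits. Those of Birc3 and of Bcl2l1 at 25607 bp lost the call without any BEL library or untreated replicate 4, that of Bcl2l1 at 20261 bp without BEL replicate 2, 3 or 4, and that of Ripk2 without any BEL library or untreated replicate 1 or 2.

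**Figure D4:**
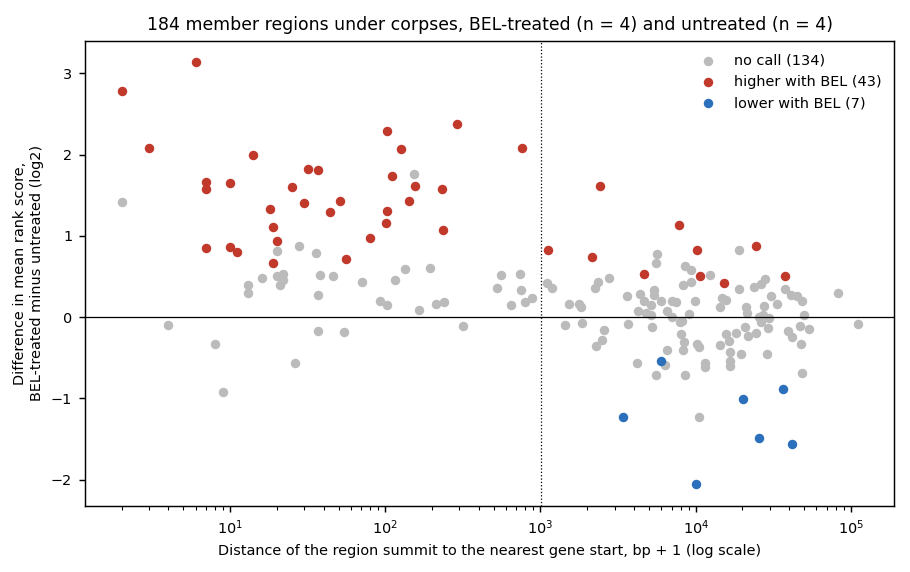
Difference in rank score between BEL-treated and untreated corpses (vertical axis, n = 4 and 4) for the 184 death-gene regions against the distance of each summit to the nearest gene start (horizontal axis, bp plus 1, log scale), with called regions marked. Called regions at promoters all lie above 0, and the 7 called regions below 0 lie to the right of the promoter limit.

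A second list of 40 genes of the same pathways, adaptors and gasdermins among them, was described in the same way. In catagen against anagen, 1 of its 61 regions scored higher (1.64%, against 1.6% of all) and 7 lower (11.5%, against 9.9%), the higher at the promoter of Birc6, a giant IAP (3.90 ± 0.79, adjusted p = 0.0118). Under corpses against medium, 1 of 28 scored higher (3.57%, against 3.73% of all) and 0 lower (against 6.56%), with 6 at an unadjusted p under 0.05, the higher at the promoter of the TNF adaptor Traf2 (3.68 ± 0.58, adjusted p = 0.0145). By genotype in CatVII limma called none of 165, with 19 at an unadjusted p under 0.05. By genotype under corpses 5 of 249 scored higher (2.01%, against 4.69% of all) and 6 lower (2.41%, against 1.6%). Of these 6, 5 lay in the window of Zbp1, the sensor that can start necroptosis. The largest difference, -5.41 ± 0.64 (adjusted p = 0.0005), lay 13464 bp from the Zbp1 start. The others in that window lay nearest to the start of another gene, Pmepa1, at 9952 to 18518 bp. With BEL 37 of 214 scored higher (17.3%, against 14.2% of all) and 16 lower (7.48%, against 7.17%).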

How the data were processed

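Open chromatin was profiled by ATAC-seq in 34 libraries of 11 groups. Per the paper's methods and the submitters' processing notes, BWA 0.7.18 placed the reads on mm39, SAMtools 1.17 took out duplicates (version 1.9 is also listed) and the authors called peaks in each library with MACS3 3.0.0 on paired fragments. deepTools 2.0.0, also listed, made tracks not used here. Each deposited list gives a summit, a fold enrichment over background (a ratio), and −log10 p-values and q-values, with no read counts, so the authors' count test could not be run. The summit column of the deposited lists is an offset in bases.

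The 36 genes, the second list of 40 genes and the marker lists were chosen with earlier results of these data known. Windows and starts came from the mouse annotation supplied for mm39, and peaks on the 19 autosomes, X and Y were used. For each comparison, lists were cut to the length of the shortest library by −log10 p as deposited, peaks sharing at least 1 bp were merged into regions, and a library without a peak was given a score of 0. Regions with a peak in at least as many libraries as the smaller group holds were tested with limma 3.58.1 (R 4.3.3, moderated with a trend, two-sided, Benjamini-Hochberg over all regions, threshold 0.05). Python 3.11.15, pandas 2.3.3 and numpy 2.4.6 made the other steps, and the fit was tested on simulated data. Named genes were those with a called or specific region, at most 14 per comparison, taken by mean rank in the higher group, with exceptions stated. The labels do not say whether replicates are different animals or dishes, so a p-value here reflects how far these libraries vary, and that variation may be technical. No library pair held identical values (0 pairs). The AA+LPC+RA groups and Rxra cKO medium entered no test. A specific region enters the test through the group that holds it, so its adjusted p is no separate support for the pattern. Alternatives were the list length, a −log10 q of at least 5, summit intervals, a 10 kb window, ranking by the fold enrichment, the rank of a missing peak, the filter, a replicate block, the tags and each library left out.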

Additional observations from a re-analysis of the deposited data

Results flagged for a closer look

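In groups of 4 to 10 libraries, 87 sets of values were searched for a single value far from the rest of its group by Dixon's 95% criterion, and 8 were found. Chance gives about 1 in 20.

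CatVII wild-type replicate 3, which has the shortest list of its group, had the lowest share of its best 4111 peaks in the death-gene windows, 0.365%. Rxra WT replicate 1 of CatVII had promoter peaks at 29 genes, fewer than the other 3 libraries of its group, and BEL replicate 4 had them at 34, while the other 3 had 33.

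The other 5 are rank scores of single regions in the BEL comparison. The Bcl2l1 promoter scored 3.17 in untreated replicate 1, below its group, and 6.37 in BEL replicate 1, above its group. The Pmaip1 promoter scored 3.97 in BEL replicate 1. The Bcl2l1 region 20261 bp from a start scored 2.92 in untreated replicate 1, and the region of that gene's window 37592 bp from the nearest start scored 0.41 in untreated replicate 2, the only untreated library that held it.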

How the results depend on the processing

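Of 143 counts of specific or called regions under the alternatives, 86 stayed within 1.5 times the reported count. The uncut lists gave 3 specific and 15 called regions between catagen and anagen, 1 call between genotypes in catagen, 136 and 137 between corpses and medium, and 14 calls between genotypes under corpses. With a −log10 q of at least 5 there were 3 specific and 2 called by stage, 6 specific by genotype in catagen, 1 call with corpses and 4 by genotype under corpses. With a 10 kb window there was 1 specific region by genotype in catagen, 1 call with corpses, and 5 and 2 specific regions by genotype under corpses and with BEL. Summit intervals gave 2 specific and 1 called with corpses and 5 calls by genotype. Ranking by fold enrichment gave 1 call with corpses, 3 by genotype under corpses and 10 with BEL. A missing peak at rank 2N (double the list length) gave 8, 4 and 15 calls by stage, with corpses and by genotype under corpses. Without the filter there were 1 call with corpses and 0 by genotype under corpses. The P42 libraries alone gave 26 specific and 18 called. The Phago and NonPhago libraries alone, chosen after seeing the data, gave 19 and 23 specific and 0 called. The cause was not tested.

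With 1 library left out, specific regions numbered 10 to 19 by stage, 2 to 12 by genotype in catagen, 4 to 11 with corpses, 9 to 13 by genotype under corpses and 4 to 8 with BEL. Called regions numbered 5 to 14, 0 to 0, 1 to 9, 1 to 15 and 34 to 49. Fits that leave 1 anagen or 1 medium library assume that it varies like the other group, and say nothing of stability where that group is at 0. Leaving out a library of a group at 0, at the same list length, does not test stability either.

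Replicate numbers are shared between groups, but same-numbered libraries deviated together with r from -0.16 to 0.25, and in no comparison was every pair over 0.1, and not every library correlated best with its own number, so the numbers were not taken to pair samples. With the replicate block there were 0 calls by stage, 0 by genotype in catagen and 0 with corpses (limma, with 8, 13 and 6 at an unadjusted p under 0.05), 7 by genotype under corpses and 54 with BEL.

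Read depth was not given in the lists, and a missing peak cannot be told apart from one below the caller's threshold. The short lists of medium, of AnaVI replicate 1 and of CatVII replicate 3 limit what can be seen there.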
